A study of Mus musculus with 88 samples.

Results

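The potassium channel genes of the mouse were followed through neurons and glia of the hippocampus and the medial prefrontal cortex. They were taken from the 3 count tables as the protein-coding genes of GENCODE vM21, matched by Ensembl ID, whose symbol is Kcn followed by a family letter code and a number. Of 53749 gene IDs, 93 had such a symbol, and 76 of these were kept because their mean level exceeded 1 CPM (counts per 1e6 counts of the library) in at least 1 group of libraries. The kept genes comprised 14 of 17 pore-forming voltage-gated subunits (Kcna, Kcnb, Kcnc, Kcnd), 9 of 10 silent modifier subunits (Kcnf, Kcng, Kcns, Kcnv), all 5 Kcnq genes, all 8 Kcnh genes, 7 of 12 auxiliary subunits (Kcnab, Kcnip, Kcne), 11 of 12 genes of the channels gated by calcium or sodium and their relative Kcnu1 (Kcnma, Kcnmb, Kcnn, Kcnt, Kcnu), 12 of 15 inward rectifiers (Kcnj) and 10 of 14 tandem-pore channels (Kcnk).

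All animals were male C57BL/6J mice aged 4 months. Contextual fear conditioning (CFC) pairs a new chamber with a foot shock, and animals were killed 10 minutes (CFC10) or 30 minutes (CFC30) after they entered the chamber, while naive animals stayed in the home cage. Nuclei were fixed, sorted by flow cytometry into NeuN+ (neuronal) and NeuN- (non-neuronal) fractions, and their total RNA was sequenced, with 4 libraries a group in hippocampus and 3 a group in mPFC. In a separate hippocampal experiment, animals received corticosterone (2 mg/kg, intraperitoneal) or saline 30 minutes before death, and nuclei were sorted as GFAP+ (astrocytes), PU.1+ (microglia), 3X- (negative for NeuN, GFAP and PU.1, labelled as enriched for oligodendrocytes) and NeuN+, with 4 libraries a group. Chromatin immunoprecipitation of γH2AX, the phosphorylated histone that marks DNA double-strand breaks, was made from whole tissue of CFC30 and naive animals, with each replicate pooled from 3 animals. The labels do not tie each RNA library to an animal, so the p-values measure the spread between these libraries.

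Potassium channels let potassium leave the cell and so set the resting potential, shorten action potentials, space them apart and damp dendritic excitation. Voltage-gated channels assemble from pore subunits, to which silent subunits and cytoplasmic or membrane partners add, while inward rectifiers and tandem-pore channels conduct at rest. In the hippocampus, A-type current carried by Kcnd pores with Kcnip partners limits how far action potentials travel back into dendrites, and in glia the inward rectifier Kcnj10 carries much of the uptake of potassium released by firing neurons. Because the RNA came from nuclei and reads over introns were counted with those over exons, the values lie closer to recent transcription than a whole-cell RNA level would.

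Library totals ran from 10561897 to 18271372 counts in hippocampus, from 10577263 to 16392677 in mPFC and from 5935395 to 12758257 in the corticosterone experiment. Hippocampal NeuN- naive replicates 3 and 4 held identical counts for all 53749 genes and were counted as 1 library, so that group had n = 3. Arc, an activity-induced gene, was higher after CFC in mPFC neurons (log2 fold change 3.82 at 10 minutes and 2.79 at 30 minutes) and in hippocampal neurons (2.20 and 1.16), and Fkbp5, a glucocorticoid target, was higher after corticosterone in all 4 populations (0.55 in NeuN+, 2.06 in GFAP+, 2.44 in PU.1+ and 2.05 in 3X-). The 6 astrocyte markers summed to 2836 to 3616 CPM in saline GFAP+ against 23.8 to 29.5 CPM in NeuN+ libraries, the 6 microglial markers to 6409.9 to 6954 CPM in PU.1+ against 16.98 to 17.9 CPM, and the 6 oligodendrocyte markers to 9349.97 to 9859.8 CPM in 3X- against 113 to 122 CPM. The sort was not complete: the summed level of 6 neuronal markers was 945 to 1345 CPM in saline GFAP+, 689 to 1031 CPM in PU.1+ and 416 to 574 CPM in 3X- libraries, against 5059.6 to 5230.1 CPM in NeuN+ libraries. Among the mPFC NeuN- naive libraries, replicate 3 stood apart, with a neuronal sum of 350 CPM against 152 and 203 CPM in the others. Counts over gene bodies cannot tell fewer cells of a type from less RNA per cell.

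Windows of 300 bases around annotated starts (250 bases before to 50 after, RefSeq, build GRCm38.p6) were at hand for 53 of the 76 genes, in 76 windows. They were searched on both strands for response elements of factors that act early after neuronal activity or corticosterone. The full cAMP response element TGACGTCA was in none of the 76 windows and in 1.79% of all 32851 windows, the EGR motif GCGTGGGCG in none and 0.612%, the CArG box in none and 1.63%, and the full palindromic glucocorticoid response element in none and 0.0487%. The half-site TGACG was in 13 windows of 13 channel genes (17.1% of windows, against 20.8% of all windows), and the half-site TGTTCT in 13 windows of 9 genes (17.1%, against 19%). The stretches below belong to members that passed the test after CFC or corticosterone, and capitals mark TGACG or its reverse complement CGTCA in the first 4 and TGTTCT or its reverse complement AGAACA in the last 2. Kcna6 lies at chr6:126740665-126740691 (minus strand), Kcnj6 at chr16:94997647-94997670 (minus), Kcnt2 at chr1:140245616-140245642 (plus), Kcnj4 at chr15:79505393-79505419 (minus), Kcnk2 at chr1:189402498-189402523 (minus) and Kcnmb4 at chr10:116473647-116473674 (minus).
Kcna6: ggggcctgccaCGTCActtggagagtg
Kcnj6: tgcggctttcaTGACGtctccctg
Kcnt2: caccctcctgcCGTCAttgtgttatgc
Kcnj4: cgcccagctctTGACGcggggcaacgc
Kcnk2: cagctagtaAGAACAaccgtcgctag
Kcnmb4: ctcggccccttTGTTCTcgcgcgcgccc
These are matches of letters only, and no binding was measured at them. The stretches were picked from genes that passed the test, so they show no link to a response. Kcnj6 also held TGTTCT and AGAACA. Kcnab1, Kcnc2, Kcnip4, Kcnj5 and Kcnj10 held TGTTCT or AGAACA as well and were not called in any comparison after CFC or corticosterone.

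The channel genes were mostly neuronal, with a short list of glial exceptions. In saline animals 49 of 69 tested genes were lower in GFAP+ than in NeuN+ nuclei and 16 were higher, in PU.1+ nuclei 58 were lower and 9 higher, and in 3X- nuclei 49 were lower and 13 higher. Of all genes tested, 64.3% were called in GFAP+ (31.7% higher and 32.7% lower), 72.2% in PU.1+ (36.8% and 35.4%) and 65.1% in 3X- nuclei (33.9% and 31.2%). The median log2 difference of the 69 channel genes was -1.70 in GFAP+, -2.71 in PU.1+ and -2.17 in 3X- nuclei over NeuN+ nuclei. All 4 tested Kcnq genes and all 7 tested Kcnh genes were lower in PU.1+ nuclei, as were all 8 tested genes of calcium- and sodium-gated channels. Levels between genes are compared below as CPM per kilobase of gene body (FPKM). The tests used scaling factors (TMM) rather than library totals, and with library totals the median difference of all genes from NeuN+ nuclei was higher by 0.36 in GFAP+, 0.49 in PU.1+ and 0.29 in 3X- nuclei on the log2 scale. Among called channel genes this turned the sign of Kcnip3 in PU.1+ and Kcnq3 in 3X- nuclei, and, where the shift was 0.48 and 0.50 between naive fractions, of Kcnip1 in hippocampus and of Kcnk10 and Kcnn2 in mPFC.

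Of the inward rectifiers, 5 of 11 tested genes were higher in each glial population than in NeuN+ nuclei. Of all genes tested, 31.7%, 36.8% and 33.9% were higher in GFAP+, PU.1+ and 3X- nuclei. Kcnj10, the main potassium-buffering channel of astrocytes and oligodendrocytes, had 4.40 ± 0.248 FPKM in GFAP+, 0.397 ± 0.0508 FPKM in PU.1+ and 4.995 ± 0.282 FPKM in 3X- nuclei, against 0.0116 ± 0.00429 FPKM in NeuN+ nuclei (SD, n = 4 each). Its partner subunit Kcnj16 followed the same order between GFAP+ and PU.1+ nuclei, at 0.556 ± 0.0413 FPKM in GFAP+, 0.0478 ± 0.00546 FPKM in PU.1+ and 0.236 ± 0.00899 FPKM in 3X- nuclei, against 0.00244 ± 0.00200 FPKM in NeuN+ nuclei (SD, n = 4 each). The log2 differences over NeuN+ nuclei were 8.19, 4.59 and 8.44 for Kcnj10 and 7.38, 3.71 and 6.21 for Kcnj16, in GFAP+, PU.1+ and 3X- nuclei in that order. Kcnj5, a subunit of G-protein-gated channels, was highest in 3X- nuclei, where it had 0.327 ± 0.0471 FPKM (SD, n = 4), and was at 0, 0, 0 and 0.121 CPM in NeuN+ libraries. Kcnj8, the pore of vascular ATP-sensitive channels, had 2.08, 2.47, 3.28 and 5.03 CPM in GFAP+ libraries, 1.10, 1.13, 1.20 and 1.74 CPM in PU.1+ libraries and 1.32, 1.997, 2.44 and 3.37 CPM in 3X- libraries, against 0, 0, 0 and 0.107 CPM in NeuN+ libraries. In these libraries 3 markers of mural cells summed to 200.4 to 301.8 CPM in GFAP+, 53.2 to 83.6 CPM in PU.1+ and 56.1 to 84.2 CPM in 3X-, against 3.76 to 4.79 CPM in NeuN+. How much of the Kcnj8 level came from vascular cells cannot be told. Kcnj2, a strong inward rectifier, was highest in PU.1+ nuclei, with 0.309 ± 0.0864 FPKM in GFAP+, 2.20 ± 0.361 FPKM in PU.1+ and 1.22 ± 0.0449 FPKM in 3X- nuclei, against 0.519 ± 0.0618 FPKM in NeuN+ nuclei (SD, n = 4 each).

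The tandem-pore channels Kcnk6 and Kcnk13 were highest in PU.1+ nuclei. Kcnk6 had 0.0342 ± 0.0133 FPKM in GFAP+, 10.7 ± 0.708 FPKM in PU.1+ and 0.0413 ± 0.00803 FPKM in 3X- nuclei, against 0.0338 ± 0.0154 FPKM in NeuN+ nuclei (SD, n = 4 each), a log2 difference of 7.71 in PU.1+ over NeuN+ nuclei, and in GFAP+ and 3X- nuclei its differences from NeuN+ nuclei of -0.37 ± 0.45 and -0.05 ± 0.44 (SE) did not pass the test (adjusted p = 0.57 and 0.958). Kcnk13 had 0.322 ± 0.0945 FPKM in GFAP+, 4.36 ± 0.285 FPKM in PU.1+ and 3.39 ± 0.385 FPKM in 3X- nuclei, against 0.105 ± 0.0118 FPKM in NeuN+ nuclei (SD, n = 4 each), with log2 differences over NeuN+ of 1.26, 4.90 and 4.73. Kcnk1, known from astrocytes as a weakly rectifying leak channel, was highest in GFAP+ nuclei at 3.66 ± 0.506 FPKM in GFAP+, 0.370 ± 0.0800 FPKM in PU.1+ and 0.541 ± 0.0779 FPKM in 3X- nuclei, against 2.002 ± 0.0687 FPKM in NeuN+ nuclei (SD, n = 4 each). Among voltage-gated pores, Kcnd1 was highest in PU.1+ nuclei, at 2.02 ± 0.167 FPKM against 0.268 ± 0.0446 FPKM in NeuN+ nuclei. Kcna1 and Kcna6, pores of low-threshold axonal channels, were highest in 3X- nuclei, Kcna1 at 13.7 ± 0.512 FPKM against 4.16 ± 0.320 FPKM in NeuN+ nuclei and Kcna6 at 11.7 ± 0.852 FPKM against 1.05 ± 0.0806 FPKM. Kcna2 and the calcium-gated Kcnn2 were highest in GFAP+ nuclei, Kcna2 at 6.999 ± 0.427 FPKM against 2.78 ± 0.223 FPKM in NeuN+ nuclei and Kcnn2 at 1.78 ± 0.363 FPKM against 0.801 ± 0.0150 FPKM. The plot of saline levels by role shows these exceptions beside the neuronal leaders.

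In NeuN+ nuclei the leaders by role included the silent subunit Kcng2 (1.56 ± 0.0628 FPKM, SD, n = 4), Kcnh3 (2.79 ± 0.197 FPKM), the A-type auxiliary subunit Kcnip4 (7.48 ± 0.282 FPKM), the large-conductance calcium-gated pore Kcnma1 (3.22 ± 0.0388 FPKM), the G-protein-gated rectifier Kcnj9 (5.98 ± 0.317 FPKM) and the leak channel Kcnk9 (2.27 ± 0.0860 FPKM). Kcnq3, a subunit of the M-current that restrains repetitive firing, had 5.27 ± 0.221 FPKM in 3X- against 5.09 ± 0.199 FPKM in NeuN+ nuclei, and its call as lower in 3X- nuclei (log2 difference -0.24, adjusted p = 0.0129) rested on the TMM scaling. Other annotated genes cover 68.0% of Kcna6 (on the opposite strand) and 81.1% of Kcnab1 (2 of 3 on the opposite strand), and the strand setting of the counting was not given, so reads of those genes cannot be told apart from theirs here or below. The largest neuronal excesses over GFAP+ nuclei were those of Kcnj6 (log2 difference -2.81), Kcnk9 (-2.79) and Kcng2 (-2.76), over PU.1+ nuclei those of Kcnj6 (-3.35), Kcnh1 (-3.28) and Kcnab1 (-3.26), and over 3X- nuclei those of Kcnh1 (-4.36), Kcnj6 (-4.35) and Kcng2 (-4.32). The same split stood in naive animals, where 49 of 63 tested genes were lower and 13 higher in hippocampal NeuN- than NeuN+ nuclei (73.3% of all genes called, 37.4% higher and 35.8% lower), and 52 of 66 were lower and 8 higher in mPFC (72.4% of all genes called, 37.5% higher and 35% lower). Kcnh1, a voltage-gated pore of the eag family, had 12.5, 13.5 and 25.2 CPM in hippocampal NeuN- against 316, 317, 317 and 321 CPM in NeuN+ naive libraries, and 6.51, 6.62 and 21.7 CPM in mPFC NeuN- against 561, 610.4 and 619 CPM in NeuN+ libraries. The mPFC NeuN- library at 21.7 CPM was replicate 3, which also had the highest Kcnip4 level of its group (411 CPM, against 117 and 131 CPM).

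The CFC groups address how genes of neurons respond to fear learning, and mPFC neurons had the most channel genes called. At 10 minutes 10 of 61 tested genes rose and 2 fell (19.7%), where 14.3% of all genes tested were called (8.04% higher and 6.21% lower). At 30 minutes 15 rose and 12 fell (44.3%), where 24.9% of all genes tested were called (13.3% higher and 11.7% lower). The changes were small and ran both ways: at 30 minutes the log2 fold changes of the 61 genes spread between -0.57 and 0.71 with a median of -0.02, against -0.0048 for all genes tested. By role, 5 of 14 voltage-gated pores rose and 2 fell at 30 minutes, 2 of 7 auxiliary subunits rose, 3 of 7 tandem-pore channels rose and 1 fell, 2 of 7 inward rectifiers rose and 3 fell, and 2 of 6 Kcnh genes fell. Both times were set against the same 3 naive libraries. For called genes, a lack of overlap between groups, here and below, describes the same libraries that the test used. It adds no separate support, and its share over all genes is not given. Genes that were not called failed the test, also where their printed values lie apart from naive.

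Of the 7 tested Kcnip and Kcnd genes, whose products form A-type channels, Kcnip2, Kcnip3 and Kcnd3 rose. Kcnip3, a calcium-binding partner of Kcnd pores that is also known as the transcriptional repressor DREAM, had 196, 217 and 239.98 CPM in naive libraries, 283, 284 and 328 CPM in CFC10 libraries and 303, 362 and 384 CPM in CFC30 libraries, a log2 fold change over naive of 0.45 ± 0.12 (SE, adjusted p = 0.0426) at 10 minutes and 0.71 ± 0.12 (adjusted p = 0.00385) at 30 minutes. Kcnip2, another such partner, had 33.9, 34.4 and 35.7 CPM in naive libraries, 39.2, 41.5 and 47.5 CPM in CFC10 libraries and 47.5, 48.8 and 49.1 CPM in CFC30 libraries (0.29 ± 0.07, adjusted p = 0.00353, and 0.50 ± 0.07, adjusted p = 1.86e-06). For both partners every CFC library lay above every naive library. The pore gene Kcnd3 had 686, 735 and 770.3 CPM in CFC30 libraries, against 489, 521 and 631 CPM in naive libraries (log2 fold change 0.44 ± 0.09 SE, adjusted p = 0.00762), with no overlap, and its 10-minute change was 0.31 ± 0.09 (adjusted p = 0.056). Kcnip4, of the same family, was at -0.11 ± 0.05 at 30 minutes (adjusted p = 0.12), Kcnip1 at 0.03 ± 0.05 (adjusted p = 0.752), Kcnd2 at -0.05 ± 0.04 (adjusted p = 0.461) and Kcnd1 at -0.31 ± 0.14 (adjusted p = 0.0949). Kcna4, an A-type pore of another family, was not called, with 13.6, 13.7 and 14.4 CPM in CFC30 libraries, against 16.1, 16.2 and 17.9 CPM in naive libraries (log2 fold change -0.24 ± 0.09 SE, adjusted p = 0.0513).

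Kcnb2, a delayed-rectifier pore, fell at 30 minutes, to 1029, 1084 and 1154 CPM in CFC30 libraries, against 1216, 1218 and 1249.8 CPM in naive libraries (log2 fold change -0.15 ± 0.04 SE, adjusted p = 0.00782). The silent subunits that join Kcnb pores split: Kcng2 fell to 8.33, 9.82 and 9.85 CPM in CFC30 libraries, against 11.04, 13.6 and 17.6 CPM in naive libraries (log2 fold change -0.57 ± 0.14 SE, adjusted p = 0.00704), and Kcns3 fell to 10.9, 11.8 and 13.3 CPM in CFC30 libraries, against 14.3, 14.98 and 16.6 CPM in naive libraries (log2 fold change -0.33 ± 0.10 SE, adjusted p = 0.0121). Kcng1 was higher, with 15.9, 16.7 and 17.5 CPM in CFC30 libraries, against 10.6, 11.1 and 13.4 CPM in naive libraries (log2 fold change 0.54 ± 0.18 SE, adjusted p = 0.0481). In all of these genes the CFC30 and naive libraries did not overlap. Among axonal pores, Kcna6 rose by 0.22 ± 0.06 at 30 minutes (adjusted p = 0.00517), while Kcna2 fell to 54.6, 54.6 and 55.1 CPM in CFC30 libraries, against 59.8, 63.3 and 64.2 CPM in naive libraries (log2 fold change -0.17 ± 0.05 SE, adjusted p = 0.0207). Kcna1 passed the test at 10 minutes (0.25 ± 0.08, adjusted p = 0.0372), at 22.99, 23.4 and 24.3 CPM in CFC10 against 18.8, 18.9 and 21.8 CPM in naive libraries.

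Kcnh7, an erg-type pore, fell to 1634, 1649.98 and 1836 CPM in CFC30 libraries, against 2027, 2027 and 2122 CPM in naive libraries (log2 fold change -0.25 ± 0.05 SE, adjusted p = 0.000142). Every CFC30 library of Kcnh7 was below the naive libraries. The auxiliary subunits of the large-conductance calcium-gated channel moved apart. Kcnmb4, the neuronal subunit, rose to 93.4, 96.4 and 97.4 CPM in CFC30 libraries, against 68.2, 78.2 and 79.2 CPM in naive libraries (log2 fold change 0.37 ± 0.06 SE, adjusted p = 2.64e-05), while Kcnmb2, a subunit that inactivates the channel, fell to 122, 126 and 132 CPM in CFC30 libraries, against 139, 139 and 152 CPM in naive libraries (log2 fold change -0.16 ± 0.05 SE, adjusted p = 0.0195). Kcnt2, a sodium-activated pore with the CGTCA stretch shown above, fell at both times, with 498, 504 and 528 CPM in naive libraries, 396, 442 and 470.04 CPM in CFC10 libraries and 379, 392 and 419 CPM in CFC30 libraries (-0.23 ± 0.05, adjusted p = 0.0038, and -0.34 ± 0.05, adjusted p = 2.25e-05).

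Of the G-protein-gated rectifiers, Kcnj6 rose and Kcnj9 fell. Kcnj3, of the same group, had 446, 472 and 615 CPM in naive libraries and 362, 383 and 413 CPM in CFC30 libraries, and was not called. Kcnj6, with TGACG just past its start, had 572, 587 and 613 CPM in naive libraries, 675, 685 and 705 CPM in CFC10 libraries and 673, 674 and 679.6 CPM in CFC30 libraries (0.22 ± 0.04, adjusted p = 0.000351, and 0.21 ± 0.04, adjusted p = 0.000228). Kcnj9 had 55.8, 56.1 and 63.2 CPM in CFC30 libraries, against 64.6, 66.7 and 68.5 CPM in naive libraries (log2 fold change -0.17 ± 0.06 SE, adjusted p = 0.0325), and the strong rectifier Kcnj2 had 5.25, 6.28 and 6.40 CPM in CFC30 libraries, against 7.14, 8.61 and 8.87 CPM in naive libraries (log2 fold change -0.45 ± 0.13 SE, adjusted p = 0.014). Neither overlapped its naive libraries. Of the leak channels, Kcnk1 had 48.7, 49.95 and 51.5 CPM in naive libraries, 57.1, 61.8 and 62.9 CPM in CFC10 libraries and 57.1, 61.3 and 62.2 CPM in CFC30 libraries (0.27 ± 0.06, adjusted p = 0.00145, and 0.29 ± 0.06, adjusted p = 0.000412). Kcnk3, an acid-sensitive channel, rose by 0.31 ± 0.07 and 0.24 ± 0.07 at the 2 times (adjusted p = 0.00186 and 0.00812), and Kcnk12 by 0.29 ± 0.07 at 30 minutes (adjusted p = 0.00338). Kcnk2, a mechanically and lipid-gated leak channel, fell to 40.5, 46.1 and 48.3 CPM in CFC30 libraries, against 48, 60.1 and 61.7 CPM in naive libraries, with 1 CFC30 library above the lowest naive library (log2 fold change -0.32 ± 0.09 SE, adjusted p = 0.0156). Further calls at 30 minutes, named after their values were seen, were Kcnc4 (0.28) and Kcnj12 (0.44) among those higher and Kcnj11 (-0.37) and Kcnh1 (-0.12) among those lower.

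**Figure D1:**
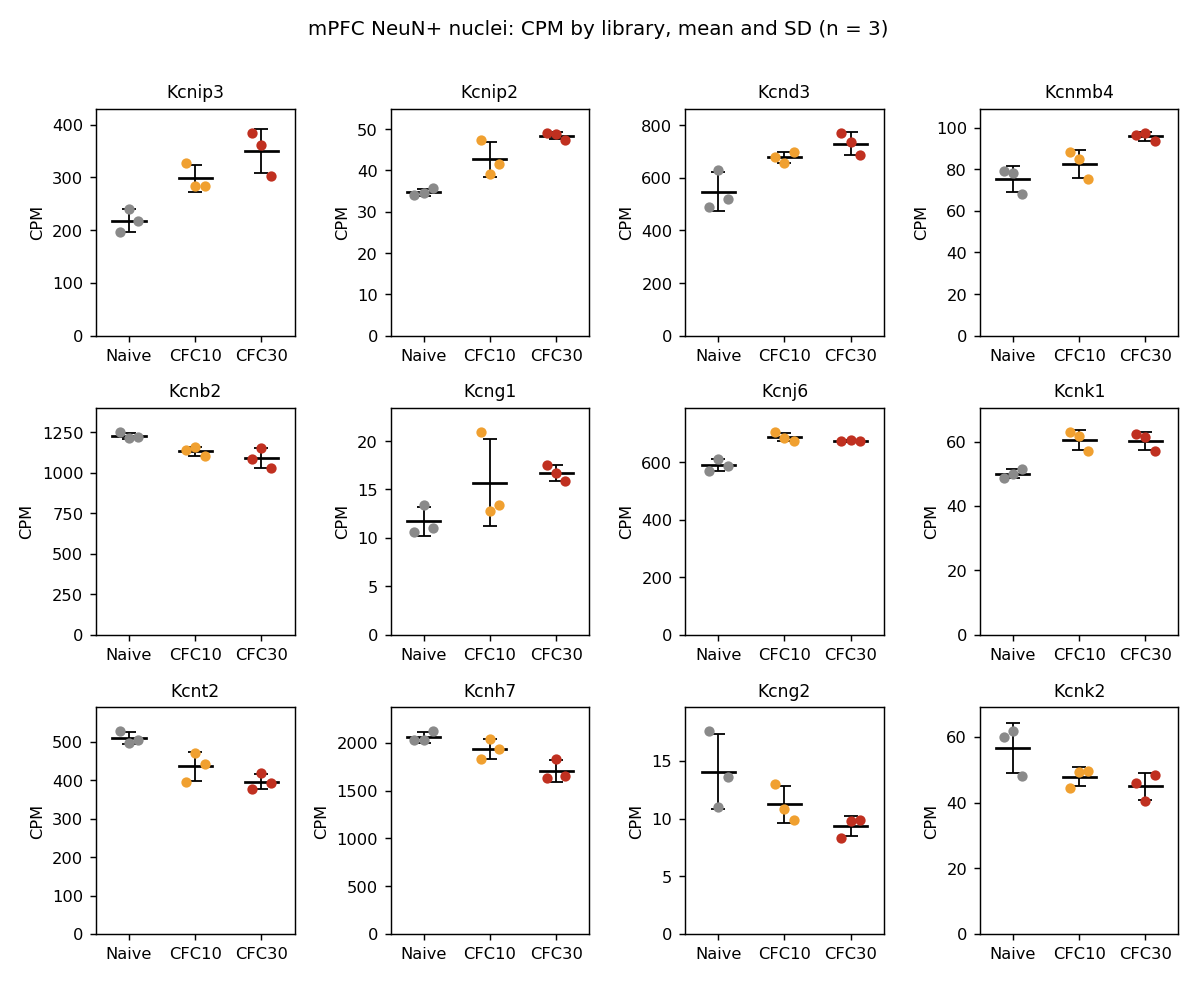
Level of 12 channel genes in mPFC NeuN+ nuclei, in CPM, by library (points) with mean and SD over 3 libraries, for naive, CFC10 and CFC30 animals. Kcnip3 stands at 303 to 384 CPM in CFC30 libraries, above the naive range of 196 to 239.98 CPM, and Kcnt2 at 379 to 419 CPM, below the naive range of 498 to 528 CPM.

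Without CFC30 replicate 1, 17 genes rather than 27 were called at 30 minutes. At 10 minutes Kcnip3 was not called without naive replicate 1 or 3, CFC10 replicate 1, 2 or 3 or CFC30 replicate 2 (adjusted p up to 0.134), Kcna1 without naive replicate 1 or 2 or CFC10 replicate 2 or 3 (up to 0.147), Kcna6 without naive replicate 1 or 2 or CFC10 replicate 1 (up to 0.182) and Kcnmb2 without naive replicate 2 (0.0977). At 30 minutes the call was lost for Kcnb2 without CFC30 replicate 3 (0.102), for Kcns3 without naive replicate 2 or CFC30 replicate 1 or 2 (up to 0.0799), for Kcnj2 without naive replicate 1 or 3 or CFC30 replicate 2 (up to 0.112), for Kcnk2 without naive replicate 1 or 2 or CFC30 replicate 2 (up to 0.067), for Kcnmb2 without naive replicate 2 or CFC30 replicate 1 or 2 (up to 0.139), for Kcnj9 without naive replicate 1 or 3 or CFC30 replicate 1 or 2 (up to 0.168) and for Kcna2 without naive replicate 2 or 3 or CFC30 replicate 1, 2 or 3 (up to 0.0856). It was likewise lost for Kcng1 without naive replicate 1 or 3 or CFC30 replicate 1, 2 or 3 (up to 0.162), for Kcnk3 without CFC30 replicate 1 (0.106), for Kcnc4 without naive replicate 2 or CFC30 replicate 1 (up to 0.144), for Kcnj12 without naive replicate 1 or CFC30 replicate 1 (up to 0.0658), for Kcnj11 without naive replicate 1 or 3 or CFC30 replicate 1, 2 or 3 (up to 0.157) and for Kcnh1 without naive replicate 1 or 3, CFC10 replicate 2 or CFC30 replicate 1 or 2 (up to 0.216). Markers of other cells moved with CFC in these libraries: the summed level of 6 oligodendrocyte markers was 64.3 to 86.2 CPM in naive, 120.2 to 156 CPM in CFC10 and 118 to 184 CPM in CFC30 libraries, and that of 5 striatal markers was 45.7 to 50.9 CPM in naive, 48.96 to 58.98 CPM in CFC10 and 60.8 to 67.2 CPM in CFC30 libraries. The 6 neuronal markers summed to 5954 to 6110.3 CPM in CFC30 against 6145 to 6352 CPM in naive libraries, and the 6 microglial markers to 17.6 to 18.3 against 18.8 to 24.4 CPM. Gene length moved with direction at 10 minutes, when the protein-coding genes that rose had a median length of 27586 bp and those that fell 89476 bp, and the 2 channel genes that fell, Kcnt2 and Kcnmb2, had a median of 331792 bp against 36309 bp for the 10 that rose. The part of these markers and of length in the channel results was not tested.

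Hippocampal neurons changed fewer channel genes. At 10 minutes 2 of 58 tested genes rose and 4 fell (10.3%), where 4.95% of all genes tested were called (2.71% higher and 2.24% lower), and at 30 minutes 2 rose and 7 fell (15.5%), where 8.88% were called (4.87% higher and 4.01% lower). Both genes that rose did so at both times. Kcng1, a silent subunit of Kcnb channels, had 16.6, 17.5, 20.4 and 20.7 CPM in naive libraries, 25.4, 27.1, 28.1 and 29.5 CPM in CFC10 libraries and 20.2, 24.5, 25.2 and 26.1 CPM in CFC30 libraries (0.51 ± 0.08, adjusted p = 0.000257, and 0.33 ± 0.08, adjusted p = 0.00821). The A-type partner Kcnip2 had 69.6, 72.9, 76.8 and 77.6 CPM in naive libraries, 87.5, 91.1, 102 and 104 CPM in CFC10 libraries and 85.9, 98.7, 109.7 and 117 CPM in CFC30 libraries (0.34 ± 0.08, adjusted p = 0.0352, and 0.46 ± 0.08, adjusted p = 0.00428). Every CFC library of Kcnip2 was above the naive libraries, as was every CFC10 library of Kcng1, while 1 CFC30 library of Kcng1 fell inside the naive range.

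Among the genes that fell, Kcna4, an A-type pore of axons, had 33.5, 37.3, 39.1 and 40.6 CPM in naive libraries, 26.7, 28.3, 29.4 and 35.5 CPM in CFC10 libraries and 26.3, 27.6, 27.96 and 28.4 CPM in CFC30 libraries (-0.37 ± 0.08, adjusted p = 0.00565, and -0.46 ± 0.08, adjusted p = 0.000536). Kcnj2 had 6.06, 8.10, 8.62 and 10.1 CPM in naive libraries, 4.84, 4.98, 6.13 and 6.41 CPM in CFC10 libraries and 4.91, 5.24, 5.45 and 6.14 CPM in CFC30 libraries (-0.59 ± 0.13, adjusted p = 0.0121, and -0.60 ± 0.14, adjusted p = 0.00617). For Kcnj2 the lowest naive library lay within the CFC values at both times, and for Kcna4 1 CFC10 library reached into the naive range. The leak channel Kcnk10 had 109, 109.7, 119.7 and 120.3 CPM in naive libraries, 94.5, 97.8, 102 and 103 CPM in CFC10 libraries and 91.3, 95.3, 99.9 and 106 CPM in CFC30 libraries (-0.25 ± 0.05, adjusted p = 0.00464, and -0.24 ± 0.05, adjusted p = 0.0035), and Kcnt2 had 358, 363, 374 and 396 CPM in naive libraries, 315, 321, 337 and 352 CPM in CFC10 libraries and 316, 335, 338 and 341 CPM in CFC30 libraries (-0.21 ± 0.05, adjusted p = 0.0168, and -0.18 ± 0.05, adjusted p = 0.0254). Neither of these overlapped its naive libraries.

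A further 3 genes fell at 30 minutes. The silent subunit Kcnv1 had 4.64, 5.16, 5.16 and 5.72 CPM in CFC30 libraries, against 7.34, 7.60, 8.11 and 9.16 CPM in naive libraries (log2 fold change -0.66 ± 0.13 SE, adjusted p = 0.00213), and the rectifier Kcnj4, known from excitatory synapses, had 17.1, 17.6, 18.6 and 21.5 CPM in CFC30 libraries, against 22.6, 23.3, 25.4 and 25.9 CPM in naive libraries (log2 fold change -0.39 ± 0.08 SE, adjusted p = 0.00198), both without overlap. Kcnk2 had 40.4, 40.8, 42.9 and 49.1 CPM in CFC30 libraries, against 47.9, 51.3, 54.4 and 54.8 CPM in naive libraries (log2 fold change -0.28 ± 0.07 SE, adjusted p = 0.0148), with the highest CFC30 library inside the naive range. The count at 10 minutes was 3 rather than 6 without naive replicate 1, CFC10 replicate 1 or CFC10 replicate 3, and without each of these Kcnj2 (adjusted p up to 0.0638) and Kcnt2 (up to 0.0876) were not called. Kcnip2 at 10 minutes was also lost without any 1 naive library (up to 0.109 over these omissions), and at 30 minutes Kcnk2 was lost without naive replicate 1 or CFC30 replicate 2 or 3 (up to 0.0566) and Kcnt2 without naive replicate 1 or 4 or CFC30 replicate 2 or 3 (up to 0.113). No cell type marker sum separated CFC from naive libraries in these nuclei. The plot of hippocampal neurons shows these values by library.

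**Figure D2:**
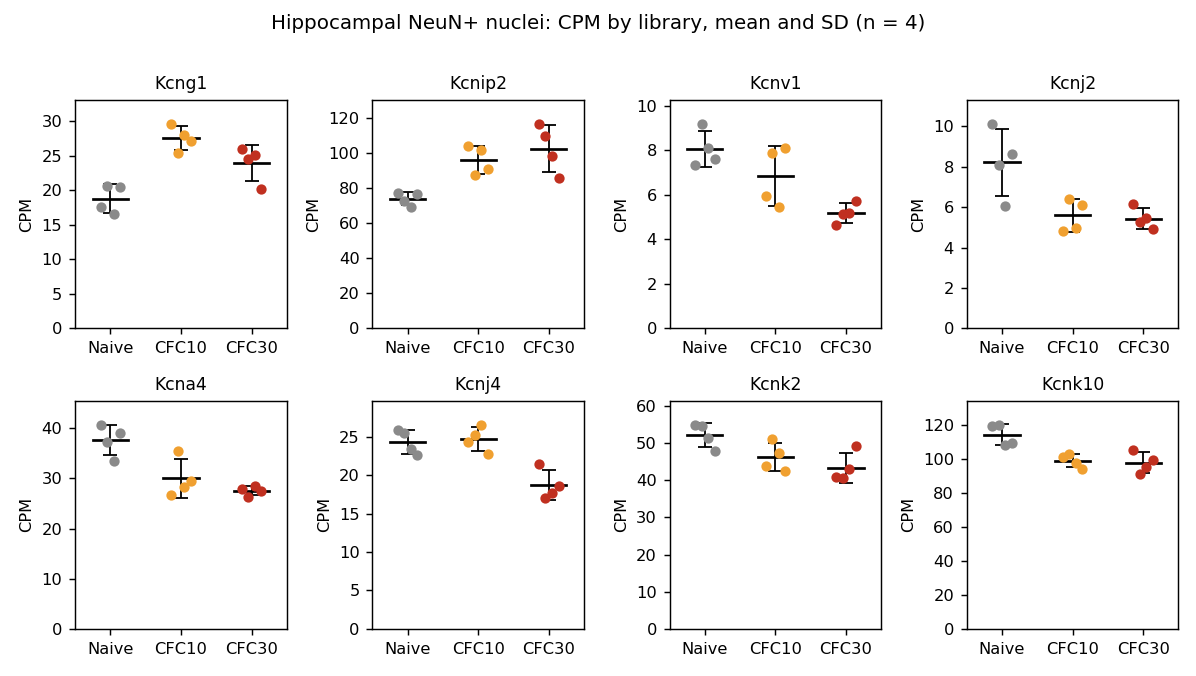
Level of 8 channel genes in hippocampal NeuN+ nuclei, in CPM, by library (points) with mean and SD over 4 libraries, for naive, CFC10 and CFC30 animals. Kcng1 and Kcnip2 sit higher after CFC (Kcnip2 at 85.9 to 117 CPM in CFC30 against 69.6 to 77.6 CPM in naive libraries), and the other 6 lower at 30 minutes.

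Few of these responses differed between times or regions when the difference itself was tested. Between 30 and 10 minutes, 1 of 58 genes differed in hippocampal neurons (0.29% of all genes called, 0.169% lower): Kcnj4, by -0.37 ± 0.08 (SE, adjusted p = 0.0258), which stood at -0.02 ± 0.07 over naive at 10 minutes and -0.39 ± 0.08 at 30 minutes. In mPFC neurons 2 of 61 differed (1.53% of all genes called, 0.847% higher and 0.685% lower), Kcna2 by -0.26 ± 0.05 (adjusted p = 0.00803) and Kcnmb4 by 0.23 ± 0.06 (adjusted p = 0.0344). Between regions, the response at 30 minutes was larger in mPFC than in hippocampus for 2 of 61 genes (1.99% of all genes called). Kcnd3 changed by 0.44 ± 0.09 in mPFC and 0.01 ± 0.04 in hippocampus, a difference of 0.42 ± 0.09 (adjusted p = 0.00596). At 10 minutes none of the 61 passed this test in edgeR or DESeq2, where 0.458% of all genes were called and 8 of the 61 had an unadjusted p under 0.05. Without mPFC naive replicate 2, 1 gene passed at 10 minutes. The 2 regions were prepared with different kit versions, so that their levels were not compared. Kcnd3 kept its call without any 1 library. Kcnj4 lost its call without HIP NeuN+ CFC10 replicate 2 or 3 or HIP NeuN+ CFC30 replicate 2, 3 or 4 (up to 0.13), Kcnmb4 without mPFC NeuN+ CFC10 replicate 2 or 3 or mPFC NeuN+ CFC30 replicate 1 or 2 (up to 0.19) and Kcna2 without mPFC NeuN+ CFC30 replicate 2 (0.0509), and 8 members rather than 2 differed between times in mPFC without CFC10 replicate 1. The count between regions at 30 minutes was 6 without hippocampal CFC30 replicate 1, 4 without mPFC naive replicate 2, mPFC CFC10 replicate 1 or hippocampal CFC10 replicate 4, and 1 without mPFC naive replicate 1, mPFC CFC30 replicate 1, hippocampal naive replicate 2 or 3 or hippocampal CFC30 replicate 2 or 4.

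In the non-neuronal fraction the response was sparse. In mPFC NeuN- nuclei 1 of 39 tested genes fell at 10 minutes (2.56%, against 2.21% of all genes called, 0.908% higher and 1.3% lower), and 1 rose and 4 fell at 30 minutes (12.8%, against 6.46% of all genes, 2.95% higher and 3.51% lower). Kcnk2 fell at both times, with 72.7, 77.96 and 80.8 CPM in naive libraries, 47, 58.1 and 61.9 CPM in CFC10 libraries and 54.2, 55.4 and 56.6 CPM in CFC30 libraries (-0.47 ± 0.08, adjusted p = 0.00687, and -0.45 ± 0.08, adjusted p = 0.00251), without overlap. Kcnn2, a small-conductance calcium-gated pore, carried the largest change, with 207, 226 and 267 CPM in naive libraries, 275, 289.9 and 408 CPM in CFC10 libraries and 438, 452 and 551 CPM in CFC30 libraries, and every CFC30 library lay above every naive one (log2 fold change 1.07 ± 0.18 SE, adjusted p = 0.0182). Kcna2 fell to 73.1, 73.7 and 75.6 CPM in CFC30 libraries, against 87.5, 93.8 and 96.1 CPM in naive libraries (log2 fold change -0.29 ± 0.06 SE, adjusted p = 0.0098). Kcnn3, a relative of Kcnn2, had 145, 153 and 165 CPM in CFC30 libraries, against 171, 188 and 197 CPM in naive libraries (log2 fold change -0.24 ± 0.07 SE, adjusted p = 0.0367), and Kcnd2, the main A-type pore of dendrites, had 589.6, 618 and 674 CPM in CFC30 libraries, against 731, 736 and 763 CPM in naive libraries (log2 fold change -0.22 ± 0.06 SE, adjusted p = 0.0391).

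Of these, Kcnk2 at 30 minutes was called without any 1 library left out. Kcnk2 at 10 minutes was lost without naive replicate 1 (0.0673), Kcnn2 without naive replicate 1 or 2 or CFC30 replicate 1 or 2 (up to 0.0766), Kcna2 without naive replicate 1 or 2 (up to 0.0624), Kcnn3 without naive replicate 1 or 2 or CFC30 replicate 1 or 3 (up to 0.19) and Kcnd2 without naive replicate 1, 2 or 3, CFC10 replicate 2 or 3 or CFC30 replicate 2 or 3 (up to 0.189). The count at 30 minutes was 1 without naive replicate 1 or 2 and 3 without CFC30 replicate 1 or 2. Without naive replicate 3, the library with the most neuronal RNA, 2 genes were called at 10 minutes, as without CFC10 replicate 1. Cell type markers moved with the groups: oligodendrocyte markers summed to 5201 to 5652 CPM in CFC30 against 4598 to 4969.6 CPM in naive libraries, microglial markers to 894 to 1069 against 1184 to 1252 CPM, and 3 markers of oligodendrocyte precursors to 525 to 552 against 595 to 648 CPM. The same 3 sums separated CFC10 from naive libraries, at 5458 to 5693, 908 to 1054 and 481 to 577 CPM in CFC10 libraries. Their part in these results was not tested.

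In hippocampal NeuN- nuclei Kcnq5, an M-current subunit, fell at 10 minutes, as 1 of 44 tested genes (2.27%, against 0.426% of all genes called), to 209, 216, 227 and 240.5 CPM in CFC10 libraries, against 258, 277 and 282 CPM in naive libraries (log2 fold change -0.33 ± 0.07 SE, adjusted p = 0.0375). Its groups did not overlap, but the call was lost without naive replicate 1, 2 or 3 or CFC10 replicate 1, 2 or 3 (up to 0.202). The oligodendrocyte markers summed to 4846 to 5862 CPM in CFC10 against 4574 to 4864 CPM in naive libraries, and their part in this result was not tested. At 30 minutes none of the 44 genes passed the edgeR test, where 2.63% of all genes were called (1.28% higher and 1.34% lower), while 11 had an unadjusted p under 0.05 and DESeq2 called 3. In edgeR 1 was called without CFC10 replicate 1 or 2 or CFC30 replicate 3. None of the genes called in mPFC NeuN- nuclei at 30 minutes passed the edgeR test in hippocampal NeuN- nuclei. Kcnn2 had 389, 418, 437 and 443 CPM in CFC30 libraries, against 257, 276 and 346 CPM in naive libraries (log2 fold change 0.52 ± 0.15 SE, adjusted p = 0.114). Kcnk2 had 57.2, 67.2, 73.6 and 81.97 CPM in CFC30 libraries, against 76.8, 80.5 and 89.4 CPM in naive libraries (log2 fold change -0.23 ± 0.11 SE, adjusted p = 0.336), with overlap. Kcna2 was at -0.32 ± 0.09 (adjusted p = 0.0526), Kcnn3 at -0.21 ± 0.08 (adjusted p = 0.193) and Kcnd2 at -0.19 ± 0.10 (adjusted p = 0.363). At this time the astrocyte markers summed to 1415 to 1427 CPM in CFC30 against 1517 to 1559 CPM in naive libraries and the oligodendrocyte markers to 4997 to 5412 against 4574 to 4864 CPM, both without overlap, and their part was not tested.

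**Figure D3:**
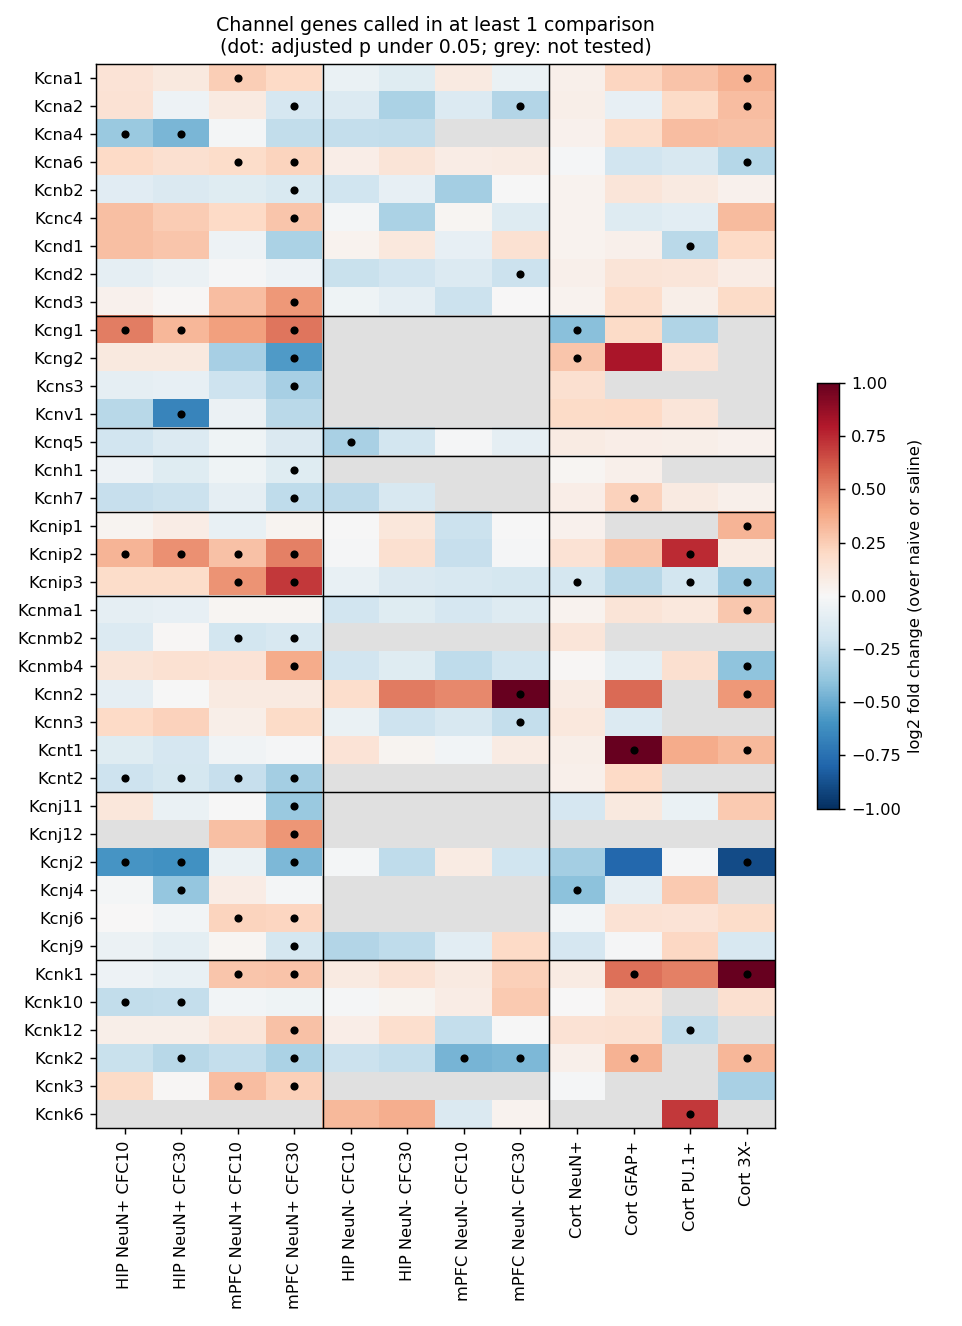
Log2 fold change of 38 channel genes that passed the test in at least 1 of 12 comparisons after CFC or corticosterone, each in a row, with comparisons in columns; colour runs between -1 and 1 and is cut there, a dot marks adjusted p under 0.05, and grey marks a gene that was not tested. Dots are densest in mPFC NeuN+ nuclei at 30 minutes (24 of the genes drawn) and in 3X- nuclei after corticosterone (12 of them).

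The other experiment asked how the stress hormone corticosterone acts on sorted hippocampal populations. The widest response was in 3X- nuclei, where 10 of 50 tested genes rose and 4 fell (28%), while 7.48% of all genes were called (4.96% higher and 2.52% lower). The median log2 fold change of tested channel genes was 0.12 in GFAP+ (38 of 55 above 0), 0.12 in PU.1+ (32 of 45) and 0.04 in NeuN+ nuclei (38 of 58). That of the 50 genes in 3X- nuclei was 0.19, against 0.00 for all genes tested there, and 41 of them were above 0. Kcnk1 rose the most, to 32.8, 37.7, 41.7 and 44.6 CPM in corticosterone libraries, against 15.4, 19.1, 20.7 and 21.6 CPM in saline libraries (log2 fold change 1.06 ± 0.11 SE, adjusted p = 3.68e-10). Kcnn2 had 89.9, 92.6, 108 and 109.5 CPM in corticosterone libraries, against 67.9, 70.4, 79.2 and 86.1 CPM in saline libraries (log2 fold change 0.43 ± 0.09 SE, adjusted p = 0.000452). In both of them the groups did not overlap. Kcnj2 fell by the most, to 5.90, 6.82, 6.87 and 7.46 CPM in corticosterone libraries, against 12.6, 12.6, 13 and 13.6 CPM in saline libraries (log2 fold change -0.89 ± 0.13 SE, adjusted p = 1.57e-06), and Kcnmb4 to 25.2, 27.3, 30.3 and 34.7 CPM in corticosterone libraries, against 35.96, 39.6, 41.9 and 42.1 CPM in saline libraries (log2 fold change -0.40 ± 0.10 SE, adjusted p = 0.00295), also without overlap.

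Besides these, the genes that rose in 3X- nuclei included the A-type partner Kcnip1 (log2 fold change 0.34 ± 0.08 SE, adjusted p = 0.00173), the axonal pores Kcna1 (0.35 ± 0.08, adjusted p = 0.00397) and Kcna2 (0.31 ± 0.08, adjusted p = 0.00691), the leak channel Kcnk2, whose window with AGAACA is printed above (0.33 ± 0.08, adjusted p = 0.00524), the large-conductance pore Kcnma1 (0.27 ± 0.07, adjusted p = 0.00664) and the sodium-activated pore Kcnt1 (0.32 ± 0.10, adjusted p = 0.0474). Corticosterone and saline libraries overlapped for Kcnt1 and for none of the other 5. Kcna6, which was 11.7 FPKM in saline 3X- nuclei, fell to 293, 298, 304 and 316 CPM in corticosterone libraries, against 347, 371, 389 and 412 CPM in saline libraries (log2 fold change -0.29 ± 0.07 SE, adjusted p = 0.00415), and Kcnip3 fell to 199, 206, 243 and 244 CPM in corticosterone libraries, against 259.6, 277, 285 and 358 CPM in saline libraries (log2 fold change -0.36 ± 0.09 SE, adjusted p = 0.0165). The axonal pores Kcna1 and Kcna6, both highest in 3X- nuclei, moved in opposite directions. Kcnt1 was lost without saline replicate 1 or 3 or corticosterone replicate 1, 2 or 4 (adjusted p up to 0.177) and Kcnip3 without saline replicate 2 or corticosterone replicate 1 or 2 (up to 0.197). The 6 oligodendrocyte markers summed to 10092 to 11242 CPM in corticosterone against 9349.97 to 9859.8 CPM in saline libraries, and 3 markers of oligodendrocyte precursors to 1133 to 1381 against 926 to 1119 CPM, both without overlap. Their part in these changes was not tested.

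In GFAP+ nuclei 4 of 55 tested genes rose and none fell (7.27%, against 3.12% of all genes called, 2.14% higher and 0.977% lower). Kcnk1 rose again, to 175, 182, 187 and 193 CPM in corticosterone libraries, against 114, 118, 135 and 153 CPM in saline libraries (log2 fold change 0.55 ± 0.09 SE, adjusted p = 0.00395), and Kcnk2 to 137, 139.95, 142 and 144 CPM in corticosterone libraries, against 111, 113, 114 and 118 CPM in saline libraries (log2 fold change 0.35 ± 0.06 SE, adjusted p = 0.00141). Kcnt1 had 90.6, 112, 117 and 149.8 CPM in corticosterone libraries, against 45.8, 59.6, 64.7 and 69.3 CPM in saline libraries (log2 fold change 1.01 ± 0.19 SE, adjusted p = 0.0354), and Kcnh7 had 189.7, 193, 204 and 221 CPM in corticosterone libraries, against 166, 176, 182 and 188 CPM in saline libraries (log2 fold change 0.23 ± 0.06 SE, adjusted p = 0.0472). None of the 4 overlapped between groups. Kcnk1 and Kcnk2 were called whichever library was left out. Kcnt1 was lost without saline replicate 1, 2, 3 or 4 or corticosterone replicate 1 or 4 (up to 0.11) and Kcnh7 without saline replicate 1, 2, 3 or 4 or corticosterone replicate 2, 3 or 4 (up to 0.203), so that 2 genes were called without saline replicate 1, 3 or 4 or corticosterone replicate 4. Of the marker sums, that of 5 striatal markers separated the groups, at 53.8 to 57.1 CPM in corticosterone against 47.3 to 50.4 CPM in saline libraries, and its part was not tested. Neuronal markers summed to 999.9 to 1345.8 CPM in corticosterone against 945 to 1345 CPM in saline GFAP+ libraries, with overlap. Kcnh7 had 5951 to 7406 counts in saline NeuN+ libraries, against 1343 to 1986 counts in saline GFAP+ libraries. How much of the GFAP+ level of Kcnh7 came from neuronal RNA cannot be told. The astrocytic rectifier Kcnj10 had 114, 118, 123 and 130.2 CPM in corticosterone libraries, against 135, 142, 148 and 154 CPM in saline libraries (log2 fold change -0.21 ± 0.06 SE, adjusted p = 0.0917).

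In PU.1+ nuclei 2 of 45 tested genes rose and 3 fell (11.1%, against 8.31% of all genes called, 4.63% higher and 3.68% lower). The microglial channel Kcnk6 rose to 172, 182, 182 and 190.04 CPM in corticosterone libraries, against 105, 109.8, 119.7 and 120.3 CPM in saline libraries (log2 fold change 0.71 ± 0.06 SE, adjusted p = 2.41e-08). Kcnip2 rose to 27.2, 27.3, 28.01 and 33.3 CPM in corticosterone libraries, against 12.3, 15.1, 20.7 and 22.1 CPM in saline libraries (log2 fold change 0.75 ± 0.16 SE, adjusted p = 0.014). Every corticosterone library was above every saline library for both, and both were called whichever library was left out. Kcnk12, a tandem-pore relative of the microglial Kcnk13, fell to 96.7, 97.8, 113 and 117 CPM in corticosterone libraries, against 119.9, 130.05, 131 and 136 CPM in saline libraries (log2 fold change -0.25 ± 0.06 SE, adjusted p = 0.0182), Kcnd1 fell to 24.9, 25.7, 26.01 and 27.4 CPM in corticosterone libraries, against 29.98, 30.3, 33.1 and 35.7 CPM in saline libraries (log2 fold change -0.27 ± 0.08 SE, adjusted p = 0.0403) and Kcnip3 to 137, 144, 149 and 162 CPM in corticosterone libraries, against 170.3, 171, 173 and 175 CPM in saline libraries (log2 fold change -0.18 ± 0.05 SE, adjusted p = 0.0348). Those 3 calls were lost, for Kcnk12 without saline replicate 1, 2 or 4 or corticosterone replicate 2 or 4 (up to 0.0685), for Kcnd1 without saline replicate 1 or 2 or corticosterone replicate 1, 2, 3 or 4 (up to 0.173) and for Kcnip3 without saline replicate 1, 2, 3 or 4 or corticosterone replicate 1, 2 or 4 (up to 0.125), and the count was 2 without saline replicate 1 or 2 or corticosterone replicate 2 or 4 and 3 without saline replicate 4 or corticosterone replicate 1. Astrocyte markers summed to 435 to 602 CPM in corticosterone against 264 to 321 CPM in saline PU.1+ libraries, and the microglial markers themselves to 5998 to 6323 against 6409.9 to 6954 CPM, both without overlap. Neuronal markers summed to 811 to 1058 CPM in corticosterone against 689 to 1031 CPM in saline PU.1+ libraries, with overlap. Kcnip2 had its highest group mean in NeuN+ corticosterone libraries (125 CPM), and how much of its PU.1+ level came from neuronal RNA cannot be told. Kcnk6 was at 0.471 to 1.02 CPM in GFAP+ corticosterone libraries, against 0.219 to 0.494 CPM in GFAP+ saline libraries. The part of these markers in the 5 changes was not tested.

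In NeuN+ nuclei 1 of 58 tested genes rose and 3 fell (6.90%, against 2.13% of all genes called, 1.3% higher and 0.837% lower). The silent subunit Kcng2 rose to 128, 130.4, 131 and 133 CPM in corticosterone libraries, against 105, 107, 108 and 115 CPM in saline libraries (log2 fold change 0.28 ± 0.05 SE, adjusted p = 6.74e-06). Kcng1, of the same family, fell to 21.04, 21.2, 21.9 and 22.6 CPM in corticosterone libraries, against 26.3, 27.1, 29.7 and 34.6 CPM in saline libraries (log2 fold change -0.42 ± 0.08 SE, adjusted p = 0.000134), Kcnj4 fell to 18.98, 20.4, 20.6 and 23.3 CPM in corticosterone libraries, against 25.1, 28.6, 28.8 and 30.7 CPM in saline libraries (log2 fold change -0.41 ± 0.08 SE, adjusted p = 0.000237) and Kcnip3 to 134, 139, 145 and 150.2 CPM in corticosterone libraries, against 151, 162, 164 and 176 CPM in saline libraries (log2 fold change -0.18 ± 0.04 SE, adjusted p = 0.0116). None of the 4 overlapped between groups. Kcng1, Kcng2 and Kcnj4 were called whichever library was left out, Kcnip3 was lost without saline replicate 1 or corticosterone replicate 4 (up to 0.16), and without saline replicate 3 the count was 7. When all 8 groups of the experiment were fitted together, with 1 spread shared by neurons and glia, none of the 4 was called (adjusted p = 0.926 for Kcng2, 0.428 for Kcng1, 0.313 for Kcnj4).

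**Figure D4:**
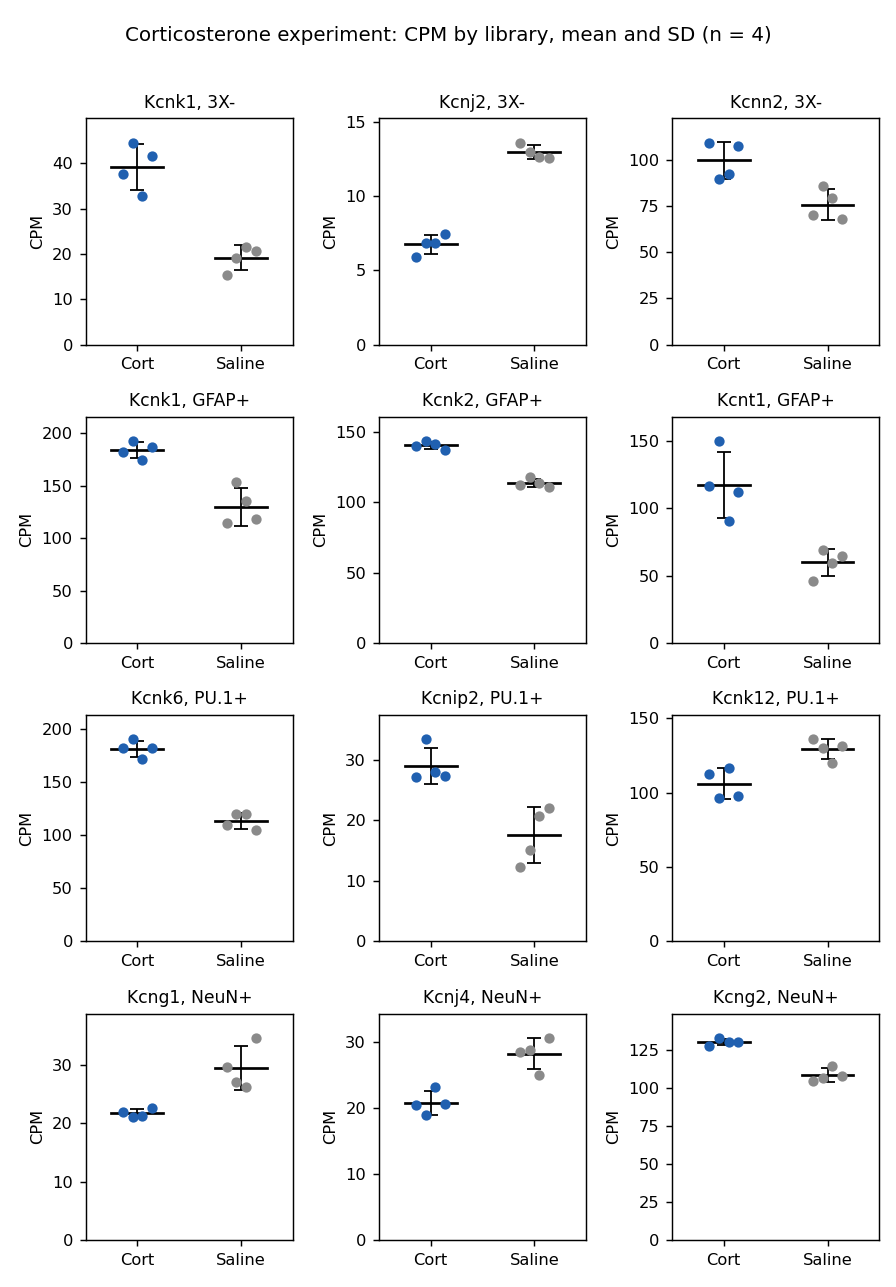
Level of 11 channel genes in 12 panels, by library in CPM (points) with mean and SD over 4 libraries, for corticosterone and saline animals in 3X-, GFAP+, PU.1+ and NeuN+ nuclei. Kcnk1 in 3X- nuclei stands at 32.8 to 44.6 CPM after corticosterone against 15.4 to 21.6 CPM after saline, and Kcnk6 in PU.1+ nuclei at 172 to 190.04 CPM against 105 to 120.3 CPM.

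Set against the neuronal response in 1 fit of all 32 libraries, 1 of 69 genes responded differently in GFAP+ nuclei (0.507% of all genes called), 2 in PU.1+ nuclei (1.59%) and 1 in 3X- nuclei (1.92%). In GFAP+ nuclei this was Kcnt1, whose response exceeded that in neurons by 0.94 ± 0.20 (SE, adjusted p = 0.0213). In PU.1+ nuclei the response of Kcnip2 was higher by 0.59 ± 0.14 (adjusted p = 0.0128) and that of Kcnk12 lower, at -0.41 ± 0.11 (adjusted p = 0.0375). In 3X- nuclei the response of Kcnk1 was higher by 0.95 ± 0.16 (adjusted p = 0.000243), whichever library was left out. The calls were lost for Kcnt1 without NeuN+ saline replicate 1 or NeuN+ corticosterone replicate 2 or 3 (up to 0.0649), for Kcnip2 without PU.1+ saline replicate 1 or 2 or PU.1+ corticosterone replicate 2 (up to 0.0565) and for Kcnk12 without NeuN+ saline replicate 2, 3 or 4, NeuN+ corticosterone replicate 3 or 4, PU.1+ saline replicate 1 or 2 or PU.1+ corticosterone replicate 2 or 4 (up to 0.142). The count in 3X- nuclei was 3 without PU.1+ saline replicate 1 and 2 without any 1 of 9 other libraries, and that in GFAP+ nuclei was 2 without GFAP+ saline replicate 2 or corticosterone replicate 1.

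Several genes passed the test in both experiments, some in opposite directions. The experiments were separate and were not tested against each other, and the 10- and 30-minute comparisons share their naive libraries, so the values are only set side by side. Kcnk2 fell after CFC, with log2 fold changes of -0.28 ± 0.07 in hippocampal and -0.32 ± 0.09 in mPFC neurons and -0.45 ± 0.08 in mPFC NeuN- nuclei at 30 minutes, and rose after corticosterone by 0.35 ± 0.06 in GFAP+ and 0.33 ± 0.08 in 3X- nuclei, while it was at 0.05 ± 0.06 in NeuN+ nuclei (adjusted p = 0.813). Kcnip3 rose by 0.71 ± 0.12 in mPFC neurons at 30 minutes and fell after corticosterone, at -0.18 ± 0.04 in NeuN+, -0.18 ± 0.05 in PU.1+ and -0.36 ± 0.09 in 3X- nuclei. The corticosterone nuclei were hippocampal, and Kcnip3 was called at neither time after CFC in hippocampal neurons, so its contrast is also one of regions. Kcng1 rose in CFC neurons of both regions (0.33 ± 0.08 in hippocampus and 0.54 ± 0.18 in mPFC) and fell in corticosterone neurons (-0.42 ± 0.08). Kcnj4 fell in hippocampal neurons in both experiments, at -0.39 ± 0.08 at 30 minutes after CFC and -0.41 ± 0.08 after corticosterone, and was at -0.02 ± 0.07 in mPFC neurons (adjusted p = 0.911). Kcnip2 was called higher in all 4 CFC comparisons of neurons and in PU.1+ nuclei after corticosterone. Over the 12 comparisons, Kcnk2 was called in 6, Kcnip2 and Kcnip3 in 5 each, and Kcng1, Kcnj2, Kcnk1 and Kcnt2 in 4 each.

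A list of 33 genes of partner proteins, scaffolds, related pumps and HCN channels was read beside the channel genes. In mPFC neurons 7 of 28 tested rose and 2 fell at each time, where 14.3% of all genes were called at 10 minutes and 24.9% at 30 minutes. At 30 minutes the postsynaptic scaffold Dlg4 (log2 fold change 0.62) and calmodulin Calm2 (0.25) rose, and the Kcnd partner Dpp10 (-0.12) and the Kcna-complex protein Adam22 (-0.14) fell. In hippocampal neurons 1 of 27 rose at 10 minutes (4.95% of all genes called), the junctophilin Jph3 (0.25), and at 30 minutes (8.88% called) Dlg4 (0.38) and Jph3 (0.23) rose and the secreted Kcna-complex protein Lgi1 (-0.16) fell. In 3X- nuclei 5 of 25 rose after corticosterone (7.48% of all genes called), among them Jph3 (0.49), the Kcnb-binding protein Vapa (0.35) and Dpp6 (0.24), and Jph4 fell (-0.45). In PU.1+ nuclei 2 of 23 rose (8.31% called), Vapa (0.74) and Calm2 (0.38), and in hippocampal NeuN- nuclei Lgi1 alone of 26 fell at 30 minutes (-0.33, with 2.63% called). None passed the edgeR test in GFAP+ or NeuN+ nuclei after corticosterone, where 1 and 4 of 27 had an unadjusted p under 0.05, in mPFC NeuN- nuclei after CFC (3 of 25 at 10 minutes and 4 of 25 at 30 minutes) or in hippocampal NeuN- nuclei at 10 minutes (5 of 26).

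The γH2AX peak lists, called by the study on merged replicates with naive and CFC peaks joined, held 282 peaks in hippocampus and 260 in mPFC. They hold fewer peaks than the study describes, so the shares below cover only the peaks in these lists, and other peaks were not analysed here. Of the 76 channel genes, 3 lay at a hippocampal peak (3.947%, against 276 of 14908 protein-coding genes with the same CPM minimum, 1.851%) and 1 at an mPFC peak (1.316%, against 254 of 14908, 1.704%). Kcnj9 was at a peak in both regions: the gene runs on the minus strand of chr1:172320501-172329318 (GRCm38), the hippocampal peak at chr1:172312675-172329186 covered 98.5% of it and the mPFC peak at chr1:172311083-172329463 all of it, and both went past its 3′ end, by 7826 bp and 9418 bp. Kcnab2, a cytoplasmic partner of Kcna pores, was covered whole by a hippocampal peak at chr4:152384677-152479702. The third was Kcnn2, of which a hippocampal peak covered the last 30.4% and went on 11803 bp past its 3′ end. The lists carry no heights and no separate naive and CFC calls, so no change with CFC could be read from them for these genes. In neurons, Kcnj9 fell in mPFC at 30 minutes (-0.17 ± 0.06, adjusted p = 0.0325) and was at -0.10 ± 0.06 in hippocampus (adjusted p = 0.371), and Kcnab2 was at 0.11 ± 0.06 in hippocampus (adjusted p = 0.301). Kcnn2 was at -0.01 ± 0.09 in hippocampal neurons (adjusted p = 0.981) and, as above, 0.52 in hippocampal NeuN- nuclei.

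Of the 76 genes, 70 were tested in at least 1 of the 12 comparisons after CFC or corticosterone and 41 passed the test in at least 1, of which 25 did so in 2 or more and 9 in both directions (Kcna2, Kcna6, Kcng1, Kcng2, Kcnh7, Kcnip3, Kcnk12, Kcnk2 and Kcnmb4). The matching shares over all genes were not computed, and in mPFC neurons at 30 minutes alone 24.9% of all genes were called. The counts therefore only account for the members and do not set them apart from other genes. The 29 that were tested and not called included Kcna3, Kcnab1, Kcnab2, Kcnab3, Kcnc1, Kcnc2, Kcnf1, Kcng3, Kcng4, Kcnh2, Kcnh3, Kcnh4, Kcnh5, Kcnh8, Kcnip4, Kcnj3, Kcnj5, Kcnj8, Kcnj10, Kcnj14, Kcnj16, Kcnk4, Kcnk9, Kcnk13, Kcnn1, Kcnq3, Kcns1 and Kcns2. The glial channels Kcnj10, Kcnj16 and Kcnk13 are among them. Kcnh6, Kcnk5, Kcnmb1, Kcnn4, Kcnq1 and Kcnu1 stayed under the level needed for a test in all 12.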

How the data were processed

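RNA was sequenced from sorted nuclei (74 libraries, of which 73 entered the fits because 2 held identical counts), and γH2AX was profiled by ChIP-seq. The deposited counts per gene came from featureCounts, run by the authors over exons and introns on GRCm38 alignments (HISAT2) after Trimmomatic and Picard; the mPFC and hippocampal libraries used kit versions that differ, and the tables were processed separately. The deposited peak positions came from Bowtie2 and MACS2 on down-sampled, merged replicates, with naive and CFC peaks joined and no scores. Tool versions and the strand setting were not given in the sources used here.

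Gene names came from GENCODE vM21, which matched 53682 of 53749 IDs. Differences were tested with edgeR 4.0.16 (quasi-likelihood, robust, TMM) in R 4.3.3 with limma 3.58.1, and p-values were adjusted by Benjamini-Hochberg over all genes tested, those with a mean FPKM over the gene body above 0.2 in at least 1 group of the fit; a call is adjusted p under 0.05. The FPKM were computed here from counts, library totals and gene length, and the standard error is the absolute log2 fold change over the square root of F. DESeq2 1.42.0 and other scalings and filters were alternatives, and the fit was tested on simulated data, where it recovered 87% of 0.5 log2 changes in mPFC neurons at 30 minutes (12806 genes) and 78.8% in 3X- nuclei (14337 genes), and called 15 and 16 unchanged genes in those runs. Tables and figures were made with Python 3.11.15 and pandas 2.3.3. Totals per library ran from 5935395 to 18271372 counts.

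The genes and lists were chosen with earlier results of these data known. The text names up to 10 called genes per direction in each of 12 comparisons by smallest adjusted p, genes at peaks, the leading gene of each role in each saline population, the 3 largest and 3 smallest called differences between populations, up to 5 called differences of effects and up to 3 partners per direction, and, chosen after their values were seen, the other calls in mPFC neurons at 30 minutes. Some genes that this rule names are not reported here, while the counts over all channel genes include them.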

Additional observations from a re-analysis of the deposited data

Results flagged for a closer look

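In groups of 4 libraries, 75 values of named genes were examined for a library far from the other 3, and 2 were found, where chance gives about 1 in 20. Kcnip2 was 33.3 CPM in PU.1+ corticosterone replicate 2, against 27.2 to 28 CPM in the other 3 libraries. Kcnma1 was 513 CPM in 3X- saline replicate 1, against 567 to 578 CPM.

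Tests of differences between times, regions or populations were passed by 8 effects of the genes named here. On the log2 scale, the difference between 30 and 10 minutes was -0.37 for Kcnj4 in hippocampal neurons, and -0.26 for Kcna2 and 0.23 for Kcnmb4 in mPFC neurons. The difference between mPFC and hippocampal neurons at 30 minutes was 0.42 for Kcnd3. The corticosterone response relative to that of NeuN+ nuclei differed by 0.94 for Kcnt1 in GFAP+, by 0.59 for Kcnip2 and -0.41 for Kcnk12 in PU.1+, and by 0.95 for Kcnk1 in 3X- nuclei.

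Among the 17 channel genes under the level minimum, 5 exceeded 1 CPM in at least 1 treated library. Kcna10 was at 1.07 CPM (7 counts) in 3X- corticosterone replicate 4, against at most 0.441 CPM in 3X- saline libraries. Kcnj15 was at 1.37 CPM (9 counts) in the same library and 1.30 CPM in another of its group, against at most 0.331 CPM in 3X- saline libraries, and Kcnj1 was at 1.43 CPM (11 counts) in 3X- corticosterone replicate 2, against at most 0.331 CPM. Kcne4 exceeded 1 CPM in 2 libraries and was highest in mPFC NeuN- CFC30 replicate 3, at 1.17 CPM (13 counts), against at most 0.662 CPM in mPFC NeuN- naive libraries. Kcnj13, a channel of the choroid plexus, was at 1.15 CPM (13 counts) in hippocampal NeuN- CFC10 replicate 2, against at most 0.143 CPM in hippocampal NeuN- naive libraries, and in that library 4 choroid plexus markers summed to 46.1 CPM, against at most 3.76 CPM in every other library.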

How the results depend on the processing

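No result of a named channel gene after CFC or corticosterone, or in the tests of differences, changed direction under any alternative run (for populations, the effect of scaling is given with those results), and with scaling by relative log expression 117 of the 118 named gene results kept their call, all but Kcng1 in mPFC neurons at 30 minutes (edgeR adjusted p = 0.0512). That scaling called 14 channel genes higher and 14 lower there, 10 and 3 at 10 minutes and 11 and 4 in 3X- nuclei. Of the 118, 105 kept their call with DESeq2, 108 with edgeR's own expression filter, 113 with scaling by library totals and 105 with no expression filter, and with 1 library left out 1121 results kept it and 165 lost it. The 118 include the 3 largest and 3 smallest called differences of each comparison of fractions or populations. All 13 calls that DESeq2 lost were responses to CFC or corticosterone or differences of effects, so the share kept among those is lower than over the 118. The cause of the changes below was not tested. With no expression filter, the number of channel genes called was 12 and 16 in hippocampal neurons at 10 and 30 minutes, 2 and 3 in hippocampal NeuN- nuclei, 19 in mPFC neurons and 2 in mPFC NeuN- nuclei at 10 minutes, 7 in NeuN+ nuclei after corticosterone, 4 and 7 for the difference between regions at 10 and 30 minutes, and 2, 1 and 4 for the corticosterone differences in GFAP+, PU.1+ and 3X- nuclei. DESeq2 called 2 and 3 in hippocampal NeuN- nuclei, 1 between times in mPFC neurons, 4 between regions at 30 minutes and 4 for the 3X- difference. With library totals the counts were 0 in hippocampal NeuN- nuclei at 10 minutes and 2 for the 3X- difference. With edgeR's own filter they were 0 and 1 in hippocampal NeuN- nuclei, 1 between times in mPFC neurons, 3 in mPFC NeuN- nuclei at 30 minutes and 4 for the 3X- difference. Fitting only the groups compared gave 1 in hippocampal NeuN- nuclei at 30 minutes, and fitting all 8 corticosterone groups gave 0 in NeuN+ and 7 in GFAP+ nuclei. DESeq2 did not call Kcna6 and Kcna1 at 10 minutes and Kcns3, Kcnj2, Kcna2, Kcnj9, Kcnh1 and Kcnj11 at 30 minutes in mPFC neurons, Kcnmb4 between times there, Kcnip3 in NeuN+ and PU.1+ nuclei, Kcnd1 in PU.1+ nuclei and Kcnt1 in 3X- nuclei. Calls lost with no expression filter included Kcnmb2, Kcna2 and Kcnj9 at 30 minutes in mPFC neurons, Kcnt1 in GFAP+ nuclei and Kcnk2, Kcnma1 and Kcna2 in 3X- nuclei, and those lost in the fit of all 8 groups included Kcnh7 in GFAP+ nuclei and Kcnn2 and Kcna6 in 3X- nuclei (edgeR adjusted p = 0.555, 0.0736 and 0.0584). Kcnt1 in 3X- nuclei was also lost with library totals, edgeR's own filter and no filter.

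With the replicate number as a block, 2 genes were called in hippocampal NeuN- nuclei at each time, 2 in mPFC NeuN- nuclei at 10 minutes, 7 in NeuN+ nuclei after corticosterone and 2 for the 3X- difference; Kcnk2 in mPFC neurons and Kcnn2 in mPFC NeuN- nuclei at 30 minutes were no longer called (adjusted p = 0.0658 and 0.0696). The main fits were not paired by number, and in no comparison reported did every pair's correlation exceed 0.1. That limit cannot exclude a pairing of fractions from the same animals. Each library correlated best with its own number in naive mPFC fractions (3 of 3) and between saline NeuN+ and GFAP+ nuclei (4 of 4). Between saline NeuN+ and PU.1+ nuclei, and between NeuN+ and 3X- nuclei, 3 of 4 correlated best with their own number. Among saline glia, which were not compared with each other, this held for 4 of 4 in every pair of populations, and for GFAP+ and 3X- nuclei all 4 correlations were above 0.1 (0.114 to 0.184). With the block, the counts of channel genes called in the 3 saline comparisons with NeuN+ nuclei were the same as without it, and those of corticosterone differences were 1 in GFAP+, 3 in PU.1+ and 2 in 3X- nuclei.

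Leaving out 1 library at a time, the counts ranged over 3 to 9 and 7 to 12 in hippocampal neurons at 10 and 30 minutes and 0 to 1 between them, 0 to 1 at each time in hippocampal NeuN- nuclei, 9 to 14 and 17 to 32 in mPFC neurons and 1 to 8 between times, 0 to 2 and 1 to 5 in mPFC NeuN- nuclei, and 3 to 7, 2 to 4, 2 to 7 and 11 to 16 after corticosterone in NeuN+, GFAP+, PU.1+ and 3X- nuclei. For naive fractions they were 60 to 62 in hippocampus and 59 to 60 in mPFC, for saline GFAP+, PU.1+ and 3X- nuclei 64 to 65, 66 to 67 and 59 to 62, between regions 0 to 1 and 1 to 6, and for the corticosterone differences 0 to 2, 0 to 3 and 1 to 3. Raising the level minimum to 2 CPM would keep 74 of the 76 genes.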
